A study of Mus musculus with 44 samples.

Results

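RNA recovered with an antibody against AUF1 was compared with RNA recovered with control IgG from C2C12 cells on day 2 of differentiation. The comparison held 6 of the 44 arrays of the series, namely the 3 AUF1 and the 3 IgG pulldown arrays of that day, and they were chosen by antibody and day alone. C2C12 is a mouse myoblast line, and in both groups the cells had been moved from growth medium with 10% serum to differentiation medium with 2% horse serum. They carried no transgene or deletion that the labels name, so the groups differed in the antibody on the beads. The column names of each group carry E1, E2 and E4, which are read here as experiments 1, 2 and 4. The E number is not the replicate number of a sample title. The AUF1 and IgG arrays of an experiment carry consecutive array numbers. The labels do not say whether experiments were separate cultures, so p-values measure the spread between arrays, which may be technical. The other arrays were AUF1 and IgG pulldowns of days 0, 4 and 6 (8, 7 and 8 arrays) and 15 input arrays, without pulldown, of days 0, 3 and 6. The titles of the input samples name DNA, while their source and molecule fields name RNA, and they are called input RNA here. No input RNA of day 2 was analysed here.

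AUF1, which the gene Hnrnpd encodes, recognises AU-rich elements in many mRNAs by binding the RNA directly and is known to alter their decay and translation. When serum is lowered, C2C12 myoblasts leave the cell cycle, switch on muscle genes and fuse into myotubes. In an RNA immunoprecipitation the antibody pulls down the protein with the RNA attached to it, and the IgG sample gives what the beads and an unrelated antibody recover. An RNA is usually called enriched when it stands higher with the specific antibody than with IgG. The question was which RNAs AUF1 recovered beyond that control as differentiation began. The table lists probes by Illumina identifier, and 0 of its 25697 identifiers occur in the gene table used here, so genes are not named and muscle markers and Hnrnpd itself were not checked.

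The AUF1 pulldowns of day 2 were dimmer than the IgG pulldowns in each experiment. A probe counted as detected on an array at a detection p-value under 0.05 against the negative control beads. In experiment 1, 29.2% of the probes were detected with AUF1 and 42.8% with IgG. In experiment 2 it was 24.4% and 39.3%, and in experiment 4 it was 35.5% and 41.5%. Every AUF1 array thus stood below every IgG array, and the gap was 13.6, 14.9 and 6.02 percentage points in experiments 1, 2 and 4. The group means were 29.7% ± 5.56 (SD, n = 3) and 41.2% ± 1.78 (SD, n = 3), a difference of -11.5 points (exact permutation test, two-sided p = 0.1). With 3 arrays against 3 that is the smallest p possible. The mean deposited signal per array was 108, 82.5 and 131 with AUF1 and 274, 196 and 214 with IgG in experiments 1, 2 and 4. It was 2.53, 2.38 and 1.63 times as high with IgG in the same order, and the groups again did not overlap (difference -121, exact permutation p = 0.1). The median signal of the arrays differed by only -3.73 (exact permutation p = 0.4).

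**Figure D1:**
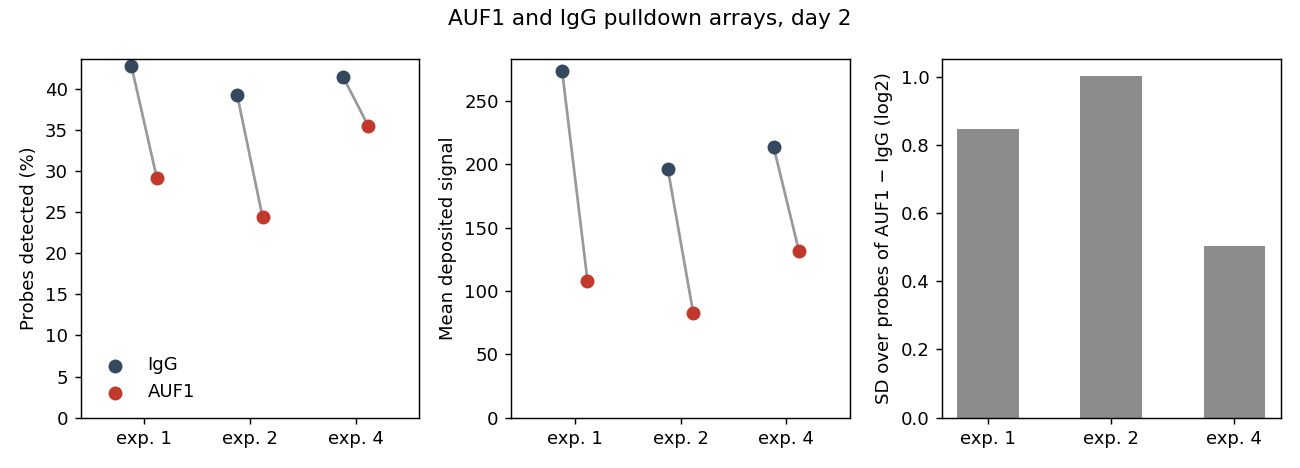
Share of probes detected (left, percent), mean deposited signal (middle, array units) and the SD over 13812 probes of the AUF1 minus IgG difference of normalized log2 signal (right) for experiments 1, 2 and 4 on day 2; lines join the IgG and AUF1 arrays of an experiment. Each AUF1 array lies below its IgG array, and experiment 4 has the smallest gap in detection (6.02 points) and the smallest SD (0.50).

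After background correction and quantile normalization, which give every array the same distribution of values, 294 of 13812 probes differed on day 2 (2.13%; limma, Benjamini-Hochberg adjusted p under 0.05). Of these, 80 were higher with AUF1 (0.579% of the probes tested) and 214 were lower (1.55%). The median difference was 1.225 log2 units among the higher probes and -1.604 among the lower ones, against -0.065 over all probes tested. Differences of at least 2-fold were reached by 66 of the 80 and 203 of the 214, and differences of at least 4-fold by 3 and 42. The higher probes were higher in all 3 experiments in 80 of 80 cases, where 22.2% of all probes were, and 213 of the 214 lower probes were lower in all 3, where 29.2% were. The groups did not overlap for 79 of the 80 higher probes (11.4% of all probes) and for 209 of the 214 lower ones (16.5%). These shares describe probes that the same values had selected.

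The number of calls rested on single arrays. Leaving out the AUF1 array of experiment 1, 2 or 4 gave 116, 1 or 500 calls. Leaving out the IgG array of the same experiments gave 0, 4 or 692, and 1716 probes had p under 0.05 by limma before adjustment where the count was 0. Without both arrays of an experiment it was 0, 0 and 515 for experiments 1, 2 and 4 (1548, 1373 and 3053 with p under 0.05 before adjustment). The direction of the called probes did not turn in any of these fits. When arrays were scaled to a common median in place of the quantile step, 0 probes were called higher and 2141 lower, and the median difference of all probes moved to -0.85. Under that scaling the AUF1 minus IgG difference itself kept its sign for 255 of the 294 called probes and turned for the rest. Relative to the median of all probes, 74 of the 80 higher and 209 of the 214 lower probes kept their direction.

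**Figure D2:**
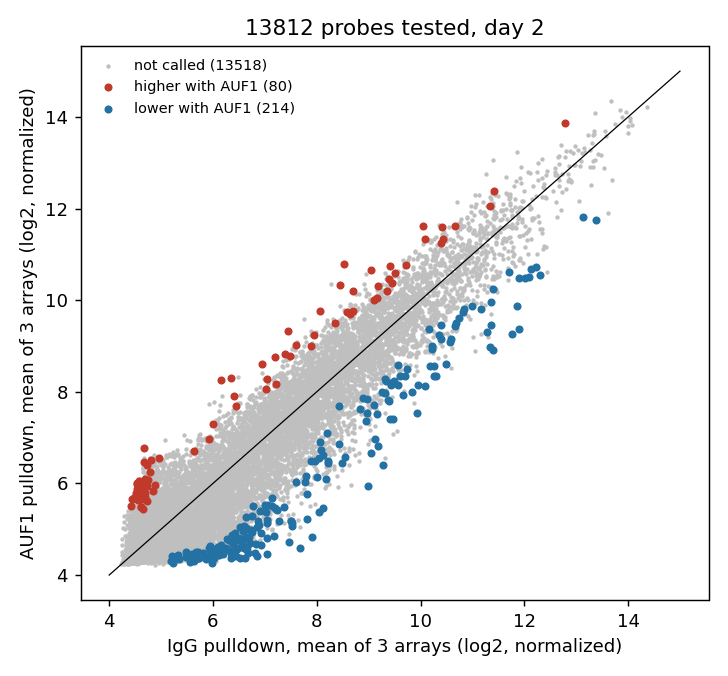
Mean normalized log2 signal of the 3 AUF1 arrays (vertical) against that of the 3 IgG arrays (horizontal) on day 2 for 13812 probes; the line marks equal values. The 80 probes called higher with AUF1 (red) and the 214 called lower (blue) flank the 13518 probes not called (grey), and many lower probes lie at the bottom of the AUF1 range.

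Higher and lower are relative statements in these values, and the deposited signals show how far. Of the 13812 probes, 11040 (79.9%) had a lower deposited signal with AUF1 than with IgG in all 3 experiments and 58 (0.42%) a higher one in all 3. Among the 80 probes called higher, the deposited signal was above that of IgG in all 3 experiments for 10, in 2 experiments for 22, in 1 experiment for 10 and in none for 38. The typical probe of this group had an IgG signal 1.07 times that of AUF1, where the median over all tested probes was 1.49 times. The 214 lower probes were below IgG in all 3 experiments in every case, with a median ratio of 2.89. Higher with AUF1 thus often meant a signal that lay less far below IgG than those of other probes.

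Detection of the called probes differed between the antibodies, in part because the same values had selected them. A probe at background with IgG has little room to be lower with AUF1. All 214 lower probes were detected on 3 of 3 IgG arrays, against 65.3% of all tested probes. With AUF1, 73 of them (34.1%) were detected on 3 arrays and 81 (37.9%) on none, against 38.5% and 29.3% of all tested probes. Their median normalized level was 5.18 (log2) with AUF1 and 7.10 with IgG. Of the 80 higher probes, 46 were detected on all 6 arrays, as were 5220 of the 13812 tested probes. No IgG array detected 16 of the 80 (20%), against 12.8% of all tested probes. Their median level was 7.99 with AUF1 and 6.38 with IgG.

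ILMN_2735735 had the lowest difference among the called probes. It stood at 4.69, 4.49 and 4.59 (log2) with AUF1 and 8.56, 7.65 and 6.81 with IgG in experiments 1, 2 and 4. No AUF1 array detected it, all 3 IgG arrays did, and on this normalized scale it was at least 4.15-fold lower with AUF1. The limma adjusted p of 0.0239 belongs to the fitted difference of -3.09 (log2), which includes the undetected AUF1 values. The lower bound, taken against the lowest detected level, was 2.46-fold without background correction and 7.72-fold under median scaling. Its deposited signals were 65.0, 58.6 and 53.6 with AUF1 and 587.5, 199.8 and 145.3 with IgG. ILMN_2797584 stood at 4.38, 4.62 and 5.47 with AUF1 and 8.26, 7.44 and 8.02 with IgG. Only 1 of 3 AUF1 arrays detected it, so the fitted difference of -3.08 ± 0.47 (log2, SE; limma adjusted p = 0.00634) rests in part on values at background, and it was -1.85 without background correction. For both probes the AUF1 and IgG arrays lay far apart with no overlap.

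ILMN_2666061 had the highest difference among the called probes. It stood at 10.69, 10.36 and 11.30 (log2) with AUF1 and 7.30, 7.82 and 10.45 with IgG in experiments 1, 2 and 4, and its highest IgG array lay above its lowest AUF1 array. The difference was 2.26 ± 0.61 (log2, SE; limma adjusted p = 0.0496), and within experiments it ran from 3.39 in experiment 1 to 0.84 in experiment 4. Before normalization the signals were 543.4, 232.3 and 1433.5 with AUF1 and 258.6, 224.0 and 1425.0 with IgG, so the deposited values were close to equal in experiments 2 and 4. ILMN_2855551 stood at 6.02, 7.07 and 7.24 with AUF1 and 4.33, 4.53 and 5.13 with IgG, a difference of 2.11 ± 0.46 (adjusted p = 0.0249). Its deposited signals of 72.8, 68.6 and 102.0 with AUF1 were above the 58.0, 59.2 and 70.7 with IgG in each experiment, at a low level where 1 of 3 IgG arrays detected it.

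The fit above did not pair arrays. With the experiment number as a block within each day, which compares each AUF1 array with the IgG array of its own experiment, 3614 probes differed on day 2 (26.2%), 1579 higher (11.4%) and 2035 lower (14.7%). All 294 probes were among them. Here too the deposited signal of most higher probes did not exceed IgG: it did so in all 3 experiments for 40 of the 1579 and in none for 1073. Of the 2035 lower probes, 2032 were below IgG in all 3 experiments.

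The experiments differed in the size of the effect. The SD over probes of the AUF1 minus IgG difference was 0.85 in experiment 1, 1.00 in experiment 2 and 0.50 in experiment 4. The 80 higher probes had a median difference of 1.45, 1.58 and 0.74 in these experiments, and the 214 lower probes had -1.81, -1.89 and -1.01. Experiment 4 thus had the smallest differences, and it was also the experiment with the smallest gap in detected probes (6.02 points). The part of the detection gap in these differences was not tested. A fit with the detected share of each array as a covariate called 635 probes. Of the 294, 149 remained called in that fit and all kept their direction. Every AUF1 array of day 2 had a lower detected share than every IgG array, so that fit cannot tell the gap from the antibody. Across the 13812 probes, which share the normalization and are not replicates, the differences of the experiments correlated at r = 0.53 (1 and 2), 0.57 (1 and 4) and 0.41 (2 and 4).

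The probes with the largest moderated t in each direction (a difference divided by its error) in the paired fit were ILMN_2635251 and ILMN_2987984 above IgG and ILMN_1231138 and ILMN_2593631 below it. ILMN_1231138 stood at 9.99, 10.21 and 9.44 (log2) with AUF1 and 11.99, 12.07 and 11.52 with IgG in experiments 1, 2 and 4. Its differences of -2.003, -1.859 and -2.085 were nearly the same in each experiment, and it differed in both fits (limma adjusted p = 0.0151 without and 0.000673 with the block). The deposited signals of this bright probe were 319.5, 211.4 and 340.8 with AUF1 against 5393.5, 4108.5 and 2975.4 with IgG.

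ILMN_2593631 stood at 4.88, 4.27 and 4.47 with AUF1, where no array detected it, and at 6.15, 6.01 and 5.97 with IgG. It was at least 1.34-fold lower (1.15-fold without background correction). This probe was called with the block and not without it (limma adjusted p = 0.000789 and 0.157). A fit that gave noisier arrays less influence called it too (limma adjusted p = 0.0225). With the detected share as a covariate it differed by -0.42 (log2; limma adjusted p = 0.627). ILMN_2987984 stood at 10.64, 10.14 and 10.18 with AUF1 and 8.76, 7.79 and 8.80 with IgG, a difference of 1.87 (adjusted p = 0.0291 without and 0.000789 with the block). Its deposited signals were 519.4, 202.4 and 583.7 with AUF1 and 665.2, 219.3 and 465.8 with IgG, so they were higher with AUF1 in experiment 4 alone.

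ILMN_2635251 stood at 6.52, 7.32 and 5.82 with AUF1 and 4.69, 5.35 and 4.81 with IgG, and was 3.03-fold higher with AUF1 on this scale (limma adjusted p = 0.0454 without and 0.000789 with the block). All 3 AUF1 arrays and 2 of 3 IgG arrays detected it. The deposited signals behind these values were 77.6, 70.5 and 64.1 with AUF1 and 71.3, 71.1 and 64.5 with IgG. In experiment 2 a signal of 70.5 on the AUF1 array and one of 71.1 on the IgG array thus became normalized levels of 7.32 and 5.35. The probe was detected on 0 of 5 input arrays of day 3.

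The size of the named higher differences depended on the normalization. Under median scaling ILMN_2635251 differed by 0.24 (log2; limma adjusted p = 0.323) and ILMN_2987984 by 0.073 (0.943), where the median of all probes was -0.85, so they lay 1.09 and 0.92 above that median. ILMN_2666061 and ILMN_2855551 differed by 0.56 and 0.75 under the same scaling (limma adjusted p = 0.729 and 0.132). Scaling by mean and SD gave 0.71 for ILMN_2635251 and 1.22 for ILMN_2855551, and without background correction they were at 0.83 and 1.13. ILMN_2666061 and ILMN_2987984 rose to 2.97 and 2.36 when scaled by mean and SD. Without background correction these 2 probes were at 2.05 and 1.74. With the detected share as a covariate, ILMN_2635251 differed by 0.82 and ILMN_2987984 by 1.24 (limma adjusted p = 0.107 and 0.0631). In that fit ILMN_2666061 differed by 2.86 and ILMN_2855551 by 1.70 (limma adjusted p = 0.0194 and 0.0414). The lower probe ILMN_1231138 differed by -3.90 under median scaling and by -1.54 when scaled by mean and SD, where it was not called (limma adjusted p = 0.196).

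**Figure D3:**
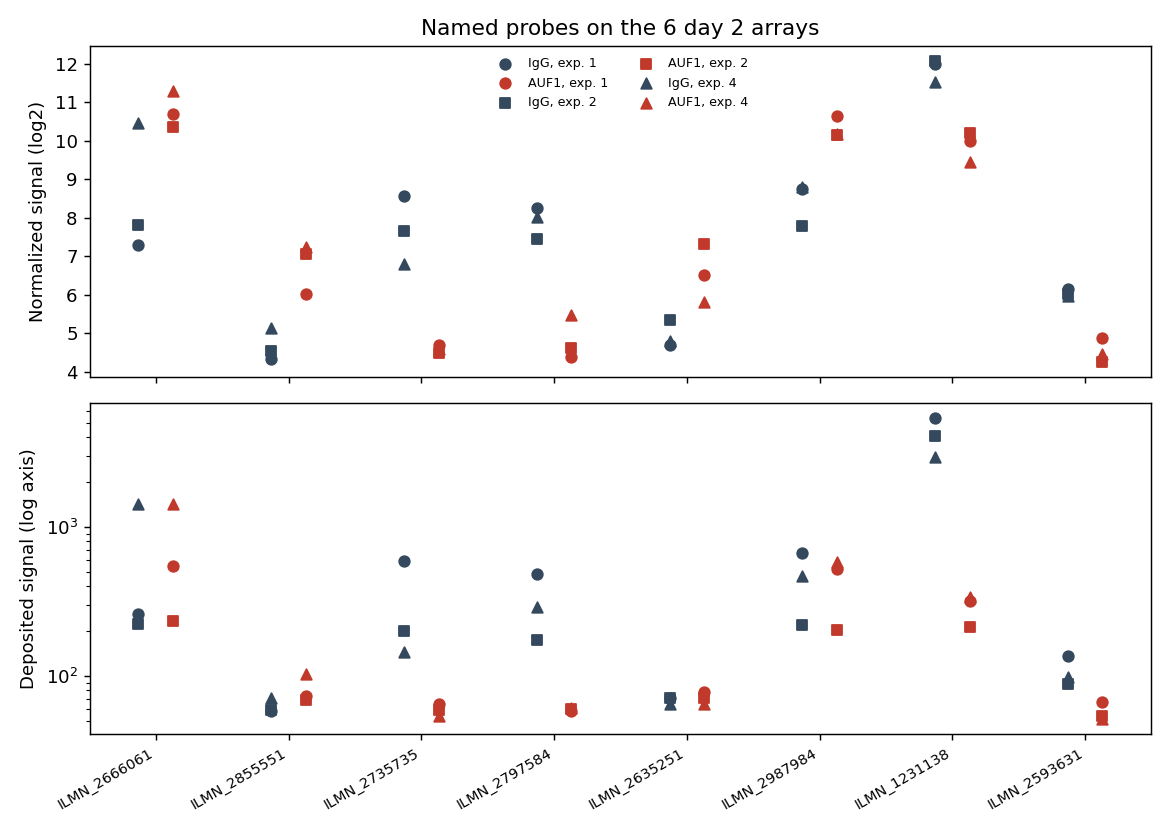
Normalized log2 signal (top) and deposited signal on a log axis (bottom) of the 8 probes named by size of change or by moderated t in the paired fit, on the 3 IgG arrays (dark) and 3 AUF1 arrays (red) of day 2; circles, squares and triangles mark experiments 1, 2 and 4. The lower probes separate on both scales, while ILMN_2635251 and ILMN_2987984 separate after normalization and overlap before it.

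Detection itself was lopsided. On day 2, 5220 of the 25697 probes (20.3%) were detected on all 6 arrays and 12536 (48.8%) on none. IgG alone detected 765 probes (2.98%) on all 3 of its arrays while no AUF1 array did, and the reverse held for 18 probes (0.07%). At a detection p under 0.01 these counts were 873 and 4. Of the 765 probes, 510 (66.7%) were detected on all 5 input arrays of day 3 and 51 (6.67%) on none, against 73.1% and 9.47% of all tested probes. Of the 18, 3 (16.7%) were detected on all 5 and 5 (27.8%) on none.

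Probes seen with a single antibody on day 2 were not so on every day. On day 6, 189 of the 765 were detected on all 4 AUF1 arrays and 22 on none, and on day 0 it was 69 and 146. On day 4, 16 were detected on all 3 AUF1 arrays and 242 on none. All IgG arrays of days 0, 4 and 6 detected 304, 87 and 389 of the 765, and no IgG array detected 12, 0 and 3. Of the 18 probes, 2 were detected on all 4 AUF1 arrays of day 6 and 5 on none. It was 3 and 4 on day 0, and 6 and 3 on day 4. All IgG arrays of days 0, 4 and 6 detected 2, 2 and 1 of the 18, and no IgG array detected 5, 1 and 5. The mean detected share of AUF1 arrays was 36.73%, 32.35% and 39.86% on days 0, 4 and 6, against 29.69% on day 2. That of IgG arrays was 42.02%, 40.12% and 43.05%, against 41.18%. Shares of all probes detected on all or no arrays of those days were not analysed here. Whether these counts reflect the probes or the detection of each day was thus not tested. ILMN_2600104 had the largest lower bound among the 18, with 6.17, 7.60 and 5.89 (log2) with AUF1 against 4.57, 4.70 and 4.72 with IgG in experiments 1, 2 and 4. Its bound was at least 3.47-fold higher with AUF1 on this scale, and it was called with the block (limma adjusted p = 0.00189) and not without it (0.0713). The bound of ILMN_2651333 was 3.25-fold (limma adjusted p = 0.0429 for the fitted difference). These bounds hold for this normalization alone: they were 1.30-fold and 1.26-fold under median scaling, 1.83-fold and 1.70-fold when scaled by mean and SD, and 1.90-fold and 1.80-fold without background correction. With the detected share as a covariate the fitted differences were 0.71 and 0.76 (log2). The deposited signals of both probes lay between 61.0 and 76.2 on all 6 arrays, near background. Next to ILMN_2735735, the largest bound among the 765 was that of ILMN_2855515, at least 2.95-fold lower with AUF1. It was 1.90-fold without background correction and 5.36-fold under median scaling, and the fitted difference had a limma adjusted p of 0.0221. The deposited signals of ILMN_2855515 were 60.3, 62.9 and 53.4 with AUF1 and 313.9, 172.5 and 125.3 with IgG, well apart in each experiment.

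The pulldowns of the other days share no array with day 2, though all were normalized together, and show how the 294 probes behaved there. Being chosen for a large difference on day 2, they tend to show smaller ones elsewhere. The 80 higher probes had a median difference of 0.58 (log2) on day 0, 0.68 on day 4 and 0.13 on day 6, and 76, 74 and 65 of them were higher with AUF1, against 50.2%, 46.2% and 51.4% of all tested probes. The 214 lower probes had medians of -0.95, -1.07 and -0.39, and 214, 213 and 204 of them were lower, against 49.8%, 53.8% and 48.6%. The direction of day 2 was thus found on the other days for most of these probes, at a smaller size. This was not particular to the called probes. Across the 13812 probes, day 2 differences correlated with those of days 0, 4 and 6 at r = 0.73, 0.71 and 0.46.

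Fewer of them passed a test on those days. These tests shared the normalization and the pooled spread of each probe with the day 2 test. A small spread that helped a probe to be called on day 2 thus also helped it on the other days. Without pairs, 20 of the 214 were called lower on day 0 (0.145% of all probes), 39 on day 4 (0.413%) and 0 on day 6 (limma; 0% of all probes). Of the 80, 11 were called higher on day 4 (0.275%). With the experiment number as a block, 131 of the 214 were called lower on day 0 (6.28% of all probes) and 177 on day 4 (12.3%). Of the 80, 36 were called higher on day 0 (6.49%) and 56 on day 4 (12.3%). On day 6 the block gave 0 calls as well, with 742 probes at an unadjusted p under 0.05.

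**Figure D4:**
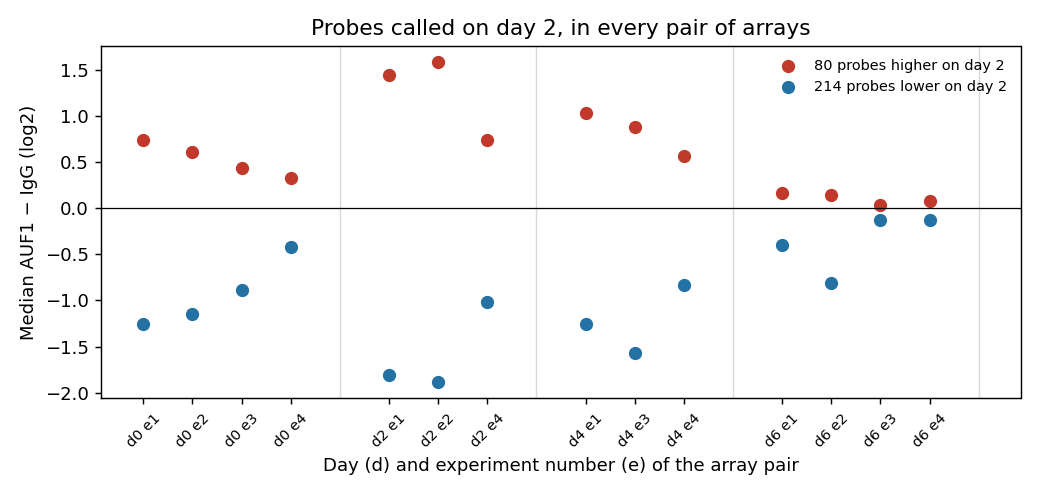
Median AUF1 minus IgG difference (log2) of the 80 probes called higher (red) and the 214 called lower (blue) on day 2, in every same-numbered pair of arrays of days 0, 2, 4 and 6. All medians keep their side of 0 in the 14 pairs, and those of day 6 run from 0.03 to 0.16 for the higher probes and from -0.13 to -0.82 for the lower ones.

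Whether the difference of day 2 departed from that of another day was tested directly. In the fit without pairs limma called 0 probes for day 2 against day 0, day 4, day 6 or the mean of these days, with 365, 311, 874 and 556 probes at an unadjusted p under 0.05. The smallest adjusted p was 0.769, for day 6. With the block, 36 probes departed from day 6 (0.261%), 11 toward more and 25 toward less AUF1 signal on day 2, and 0 departed from the other comparisons. These probes were chosen by that departure, so their medians are a description. For the 25, the median difference was -1.51 on day 2 and 0.02 on day 6. It was -0.60 before differentiation and -0.92 on day 4. For the 11 the day 2 and day 6 medians were 1.30 and -0.03, and those of the days 0 and 4 were 0.36 and 0.80. Array weights, which give noisier arrays less influence, called 187 probes against day 6. A difference particular to day 2 was shown for no probe against days 0 and 4 in the fits with and without the block.

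ILMN_2735735, for example, differed by -1.79 ± 0.58 on day 0, -2.08 ± 0.62 on day 4 and -0.98 ± 0.58 on day 6 (log2, SE). ILMN_2797584 differed by -1.86 ± 0.40, -2.34 ± 0.44 and -0.67 ± 0.40 on the same days. It was called on day 4 (limma adjusted p = 0.0166) and narrowly missed the threshold on day 0 (0.0524). ILMN_2666061 differed by 1.14 ± 0.53, 2.15 ± 0.57 and 0.37 ± 0.53, and was called on none of these days (limma adjusted p = 0.376, 0.0658 and 1). ILMN_1231138 differed by -1.52 ± 0.34, -2.003 ± 0.367 and -0.27 ± 0.34, with a call on day 4 (limma adjusted p = 0.0166).

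Input RNA gave a readout that the comparison of day 2 did not use. Tested probes were split into 5 bins of equal size by their mean level in the 5 input arrays of day 3. The higher probes lay at both ends: 31 of the 80 fell in the lowest bin (1.12% of its 2763 probes), where input levels ran from 4.24 to 4.76 (log2), and 20 in the highest (0.724%), with 6, 11 and 12 between. The lower probes were fewest in the lowest bin, with 22 (0.796%), and most in the highest, with 64 (2.32%). With the block, 12.9% of the lowest bin was higher and 5.57% lower, while of the highest bin 15.7% was higher and 17.4% lower. On day 3, 16 of the 80 higher probes were detected on no input array (20%), against 9.47% of all tested probes and 9 of the 214 lower ones (4.21%).

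**Figure D5:**
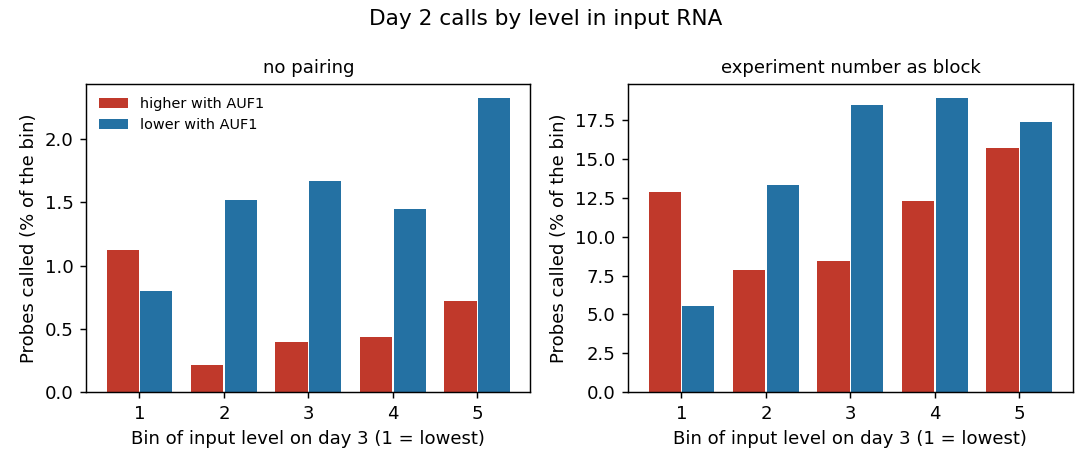
Percent of probes called higher (red) and lower (blue) with AUF1 on day 2, by bin of their mean level in input RNA of day 3 (1 is the lowest), without pairing (left) and with the experiment number as a block (right); the vertical scales differ. Higher calls take 1.12% of the lowest bin and lower calls 2.32% of the highest without pairing.

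The change of input RNA from day 0 to day 3 was set beside the called probes. In bulk RNA, fewer cells of a type and less RNA per cell cannot be told apart. The column names repeat experiment 1 on day 0 and experiment 2 on day 3, so the 5 input arrays of a day cover 4 experiment numbers, while the labels number 5 replicates. Of 13750 probes tested in input, 17.2% rose and 20.3% fell from day 0 to day 3 (limma, adjusted p under 0.05). Of the 12511 that were also tested on day 2, 17.6% rose and 21.3% fell. Of the 206 lower probes of day 2 tested there, 55 rose (26.7%) and 31 fell (15%). Of the 64 higher probes tested there, 5 rose (7.81%) and 21 fell (32.8%). The median change in input was 0.13 (log2) for the lower and -0.12 for the higher probes, against -0.025 over the 12511 probes tested in both. In the larger lists of the paired fit the shares were closer to those of all probes: of the lower probes 20.6% rose and 20.6% fell, and of the higher ones 15.8% rose and 22.1% fell. ILMN_2593631 changed most among the named probes, by -3.08 ± 0.24 (log2, SE; limma adjusted p = 3.7e-08), from 8.59 ± 0.24 to 5.51 ± 0.44 (SD, n = 5 arrays each). With arrays of a shared experiment number averaged (n = 4 a day), 14.6% of the probes rose and 17% fell, as did 23.3% and 10.7% of the lower and 6.25% and 29.7% of the higher ones, and ILMN_2593631 changed by -3.09 ± 0.27 (limma adjusted p = 1.47e-06). ILMN_1231138 changed by -0.93 ± 0.20 (adjusted p = 0.00162), and ILMN_2735735 by -0.074 ± 0.20 (adjusted p = 0.806).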

How the data were processed

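Per the file headers, the deposited table holds signal intensities that were not normalized, with detection p-values, for 25697 probes on 44 Illumina bead arrays; GenomeStudio 1.6.0 is the software listed in the submitters' processing notes. Background subtraction by the authors was not given in the sources used here. Labelled cRNA was made from oligo-dT primed cDNA, per the labels' protocols. Columns were assigned to groups by antibody and day.

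With limma 3.58.1 in R 4.3.3, neqc (normexp background correction, which inferred the negative controls from detection p-values, an offset of 16, quantile normalization and log2) was run on the 29 pulldown arrays and, apart from them, on the 15 input arrays. Tests used the probes that 3 or more arrays of a fit detected at p under 0.05 (13812 and 13750). Groups had their own means and pooled their spread for each probe. P-values were adjusted by Benjamini-Hochberg over all tested probes. Quantile normalization does not measure a change of total RNA. The number of arrays limits the precision. The fit was tested on simulated data with a smaller spread than these arrays. Its recovery of changes at their spread was not tested.

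For a probe undetected on all arrays of the dimmer group, the fold is a lower bound: the brighter group's mean is set against the dimmer group's, with each dim value raised, where it is lower, to the lowest level that a detected probe had on that array. The bound itself was not tested, and an adjusted p given beside it belongs to the fitted difference. Probes named are the 2 highest and 2 lowest differences among called probes with the same sign in all experiments, the same by moderated t with the replicate block, and the 2 largest bounds in each direction among probes detected with a single antibody.

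Deviations from the group means of day 2 arrays with the same experiment number correlated across probes at 0.11, 0.36 and 0.48 in experiments 1, 2 and 4, each over the limit of 0.1, and the numbers were taken as pairs. The IgG array of experiment 1 correlated more with the AUF1 array of experiment 2 (0.13) than with its own (0.11), so the pairing rests on the column names. Members, lists and tests were chosen with earlier results of these data known. The gene lists and cell type markers planned are not analysed here, since probes were not paired with genes, and the table gives no probe sequences. Alternatives covered normalization, background, filters, moderation, weights, pairing and single arrays.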

Additional observations from a re-analysis of the deposited data

Results flagged for a closer look

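With the replicate block, 36 probes had a day 2 difference that departed from that of day 6, by the test of the difference itself; 14 of the 25 probes lower on day 2 and 8 of the 11 higher ones had the opposite sign on day 6. They were chosen for departing from day 6, so their day 6 values follow from that choice. Of all probes called with the block on day 2, 23.8% of the lower and 27.2% of the higher ones had the opposite sign there.

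In 96 groups of 4 or 5 arrays (the detected share and each named probe), 11 held an array far from the others by Dixon's ratio, where chance gives about 1 in 20. The share of probes detected was 35.7% on the IgG array of experiment 3 on day 6 (others 45.2 to 45.8) and 25.6% on the IgG array of experiment 2 on day 4 (others 43.5 to 46.8). The latter array also stood apart for ILMN_2855551 at 5.28 (log2; others up to 4.43), ILMN_2635251 at 5.86 (others up to 4.73) and ILMN_2600104 at 7.13 (others up to 4.64). The IgG array of experiment 2 on day 0 stood apart for ILMN_2635251 at 6.19, ILMN_2600104 at 5.80 and ILMN_2651333 at 5.64, where the other 3 arrays reached at most 4.74. These arrays enter the day 0 and day 4 differences of these probes. They enter the day 2 test through the pooled spread, the shared normalization and the detection filter. ILMN_2666061 was at 10.35 on the AUF1 array of experiment 2 on day 0 (others 11.74 to 11.86), ILMN_1231138 at 9.60 on the AUF1 array of experiment 4 on day 6 (others 10.07 to 10.14), and ILMN_2855551 at 4.34 on input array 35 of day 6 (others 4.51 to 4.55).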

How the results depend on the processing

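The count of 294 probes moved by over 1.5 times under most changes of the model: to 3614 with the replicate block, 2642 with array weights, 2141 under median scaling, 1368 under scaling by mean and SD (344 higher, 1024 lower; median of all probes -0.12) and 635 with the detected share as a covariate. A fit of the day 2 arrays alone called 10 without and 530 with the replicate block, and dropping pulldown arrays that detected under 30% of probes (chosen after the data were examined) called 0 (limma; 1881 at an unadjusted p under 0.05), with a lone AUF1 array of day 2 assumed to vary like the other groups. Leaving out an array, or both arrays of an experiment (the latter chosen after the data were examined), gave 0 to 692, with 515 without both arrays of experiment 4. It was 302 without background correction, 238 without the detection filter (108 higher, 130 lower), 343 for probes detected on all 3 arrays of a day 2 group, 292 with trend and robust moderation and 269 with a 2-fold minimum. Departures from day 6 were 36 with the block and 187 with array weights, and from the mean of the other days 2 with array weights. Leaving out a day 2 array gave 0 to 1 departures from day 0, 0 to 0 from day 4, 0 to 5 from day 6 and 0 to 14 from their mean. The difference in detected share ran from -14.4 to -8.85 points and that in mean signal from -136 to -97.5 when single arrays were left out; these tests cannot pass 0.05 and say nothing about stability. Probes detected with AUF1 alone numbered 4 at a detection p under 0.01. In input, leaving out an array gave 4543 to 5497 changed probes against 5148, median scaling 4260, and averaging arrays of a shared experiment number 4341 (these chosen after the data were examined). None of the 11 named probes changed sign under its 21 alternatives. The 9 called as reported lost that call under 5 (ILMN_2797584) to 13 (ILMN_2635251) of them, with limma adjusted p up to 0.943 (ILMN_2987984); ILMN_2593631 and ILMN_2600104 gained one under 3 and 4. Signals at background leave the size of a difference as a bound for the 37.9% of lower probes that no AUF1 array and the 20% of higher probes that no IgG array detected.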

Other observations

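Over the 14 same-numbered pairs of AUF1 and IgG arrays of all days, the SD over probes of the AUF1 minus IgG difference ran from 0.24 (day 6, experiment 4) to 1.01 (day 4, experiment 3), and the day 2 pair of experiment 2 was next at 1.00. The detected share differed by -0.85, -19.0 and -14.9 points in these 3 pairs. Experiment 4 had the smallest SD of its day on days 0, 2, 4 and 6, at 0.42, 0.50, 0.49 and 0.24.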
